A study of Homo sapiens with 2 samples.

Results

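The enzymes of cholesterol and fatty acid synthesis and the genes that control them were compared between 2 arrays of U251 cells, a human glioma cell line: 1 array after a control transfection and 1 after transfection with the microRNA miR-31. The genes were chosen by name, with earlier results of these data known. They are 32 genes of the SREBP pathway, sterol synthesis and fatty acid synthesis. Each was read by the brightest of the Affymetrix HG-U133_Plus_2 probe sets (groups of short probes against one transcript) that carry exactly that symbol in the platform annotation. Of the 32 genes 29 had such a probe set, out of 19775 genes on the array with 1 symbol. CYP51A1 and FADS1 were paired only with probe sets of several genes and have no value here, and FDFT1 was not analysed here. Both cultures grew in DMEM with 10% FBS, so serum lipids were present in both, and 250 ng of total RNA was labelled for each array. The labels give neither the kind of construct transfected nor the time to harvest.

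With 1 array in each group there is no replicate spread, and no p-value was computed: every difference below is between 2 RNA samples. The deposited intensity is linear, and each log2 ratio is log2(intensity + 16) in the miR-31 array minus the same in the control array, which understates the change of dim genes. A ratio of 1 is 2-fold. From 3142 genes with exactly 2 probe sets past a level filter (a mean of both log2 levels no lower than the median over the array, which corresponds to an intensity of 62.6) the SD of a probe set's ratio was 0.34, a gauge of how far probe sets disagree that says nothing of how far cultures do. In RNA from whole cultures, fewer cells of a type and less RNA per cell cannot be told apart.

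Cells make cholesterol from acetyl-CoA through mevalonate, isoprenoid units, squalene and lanosterol, and they make fatty acids from the same acetyl-CoA. Both branches are switched on by the SREBP transcription factors, which are held in the endoplasmic reticulum by SCAP and the INSIG proteins while sterols are plentiful and are released by cleavage when sterols run low. Glial cells are the main source of newly made cholesterol in the brain.

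Of the 29 genes 26 had a ratio above 0 and 3 below 0, and the median was 0.42. Over the 11792 genes past the level filter 53.2% were above 0 and 46.8% below, and the median was 0.03. The median was 0.38 over the 17 measured enzymes of sterol synthesis, 0.70 over the 6 genes of SREBP control and sterol transport and 0.41 over the 6 measured genes of fatty acid synthesis. TM7SF2, SREBF1, SCD and MSMO1 were past 2-fold in the direction of the miR-31 array, which is 4 of 29 or 13.8%, against a background of 3.74% of genes past the filter and 5.99% of genes without it. These calls vary with the processing. Averaging the probe sets of a gene takes SREBF1 to 0.78 and SCD to 0.90, under 2-fold. The same averaging takes INSIG1 to 1.14 and FADS2 to 1.01, past 2-fold, so the count stays at 4 of 29. Quantile and loess scaling each put INSIG1 just past 2-fold as well, for a count of 5. Centring on the bacterial hybridisation controls takes MSMO1 to 0.87. Centring on the poly-A spike-in controls leaves TM7SF2 alone past 2-fold higher and puts PMVK (-1.12) and MVD (-1.69) past 2-fold lower. At 1.5-fold 9 of 29 were higher, against 11.7% past the filter and 14.8% without it. On the deposited scale MVD alone was lower at either threshold, from an intensity below the filter. Past the filter 1.58% of all genes were lower at 2-fold and 6.72% at 1.5-fold, and without it 5.07% and 12.6%. These directions depend on scale: centring both arrays on the poly-A spike-in controls, whose own median ratio was above 0, subtracts 0.55 from every gene and leaves 19 of 29 below 0. The distance between the median of these genes and that of all genes, 0.39, cannot change under such a shift and tells nothing of its effect. Centring on the bacterial hybridisation controls subtracts 0.19 and puts ACAT2, FDPS, LBR, NSDHL, HSD17B7, EBP, SCAP and FASN below 0 as well, 11 of 29 in all.

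**Figure D1:**
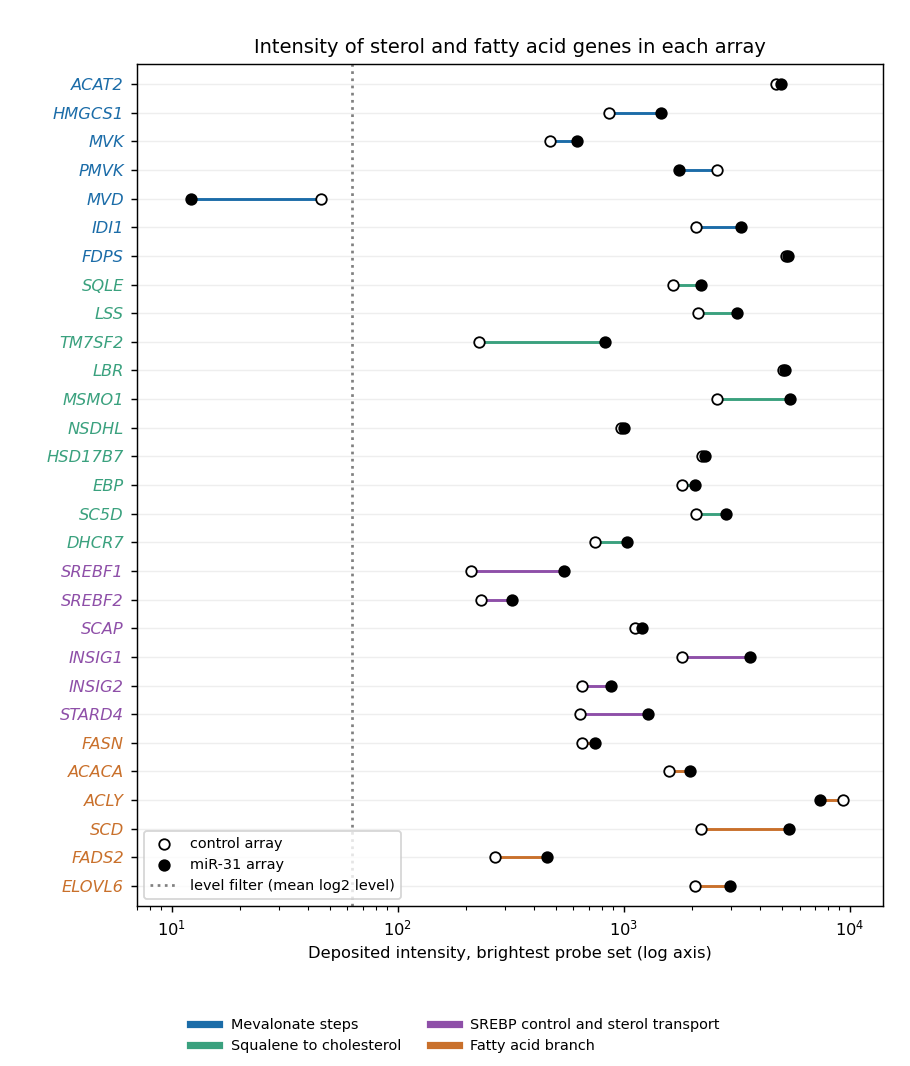
Deposited intensity of the brightest probe set of each of the 29 measured genes on a log axis, with an open circle for the control array and a filled circle for the miR-31 array. The line joining them is coloured by the gene's role. On this deposited scale the filled circle lies to the right in 26 genes and to the left in PMVK, MVD and ACLY, and MVD alone lies below the dotted level filter of 62.6.

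The microRNA transfected is named in the labels without its arm. RefSeq (GRCh38.p14) lists the 5p arm of miR-31, 21 bases long, at chr9:21512158-21512178 on the minus strand, and its sequence is shown with the seed, bases 2 to 8, in capitals.
hsa-miR-31-5p: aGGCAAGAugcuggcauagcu
Its level was not measured by the probe sets used here.

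Promoters of 4 genes are shown as examples of the SREBP control loop (SREBF2, INSIG1) and of its enzymes in each branch (MSMO1, SCD). Each is 300 bases of GRCh38.p14 from RefSeq, from 250 before to 50 after the gene's start, on the gene's strand. Capitals mark exact matches, on either strand, to the sterol regulatory element, to the CCAAT box bound by NF-Y, an SREBP partner, and to the E-box CACGTG. The sterol element was searched as 10 bases, which are the first run of capitals in the SREBF2 sequence, and as the shorter TCACNCCAC, which lies inside those 10.
SREBF2, chr22:41832855-41833154, plus strand: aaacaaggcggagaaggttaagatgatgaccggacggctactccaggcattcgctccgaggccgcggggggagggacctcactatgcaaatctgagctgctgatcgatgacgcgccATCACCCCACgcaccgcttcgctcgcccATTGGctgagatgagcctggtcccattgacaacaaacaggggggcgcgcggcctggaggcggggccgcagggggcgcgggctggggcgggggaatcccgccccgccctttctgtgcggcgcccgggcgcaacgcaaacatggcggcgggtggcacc
INSIG1, chr7:155297628-155297927, plus strand: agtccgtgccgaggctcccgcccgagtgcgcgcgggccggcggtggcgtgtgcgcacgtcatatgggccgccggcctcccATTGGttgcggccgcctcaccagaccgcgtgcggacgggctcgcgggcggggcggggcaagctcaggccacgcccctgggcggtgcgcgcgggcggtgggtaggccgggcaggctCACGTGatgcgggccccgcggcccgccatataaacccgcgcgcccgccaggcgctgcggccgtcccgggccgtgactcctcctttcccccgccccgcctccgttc
MSMO1, chr4:165327419-165327718, plus strand: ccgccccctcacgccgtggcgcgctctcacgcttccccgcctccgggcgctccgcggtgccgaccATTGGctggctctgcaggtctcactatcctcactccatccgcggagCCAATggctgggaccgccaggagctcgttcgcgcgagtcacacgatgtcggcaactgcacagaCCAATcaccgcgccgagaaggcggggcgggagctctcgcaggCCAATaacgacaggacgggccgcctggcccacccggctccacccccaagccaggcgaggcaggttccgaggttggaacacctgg
SCD, chr10:100346983-100347282, plus strand: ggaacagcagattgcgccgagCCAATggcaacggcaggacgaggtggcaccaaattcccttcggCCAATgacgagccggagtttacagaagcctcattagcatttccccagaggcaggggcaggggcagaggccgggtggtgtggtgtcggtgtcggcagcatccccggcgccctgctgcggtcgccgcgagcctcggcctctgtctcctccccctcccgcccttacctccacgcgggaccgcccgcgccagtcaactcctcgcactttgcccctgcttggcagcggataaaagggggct

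The SREBF2 promoter held the sterol element 134 bases before the start and a CCAAT box, on the other strand, 106 bases before it. MSMO1 had 4 CCAAT boxes, SCD had 2, and INSIG1 had 1 together with an E-box 55 bases before the start. RefSeq's table held promoters of 28 of the 32 genes, in 38 windows because some genes have several starts. ACAT2, FASN, FDFT1 and SQLE were not matched. A CCAAT box lay in 24 of 38 windows (63.2%) and in at least 1 window of 20 of 28 genes (71.4%), against 34.6% of all 35116 windows in the table and 43.8% of 9717 genes that were compared on the arrays. The count by window takes the same sites again in overlapping windows of ACLY and of SC5D, which the count by gene does not. The longer sterol element lay in 1 of 38 windows (2.63%), that of SREBF2, against 0.0456% of all windows, and its core in the same window, against 1.13%. Each share of these genes rests on that 1 match. Only exact matches were counted, so elements of other spelling in the other windows would be missed. E-boxes lay in 5 of 38 windows (13.2%), against 7.26%, but 2 of these are overlapping SC5D windows with the same site, and by gene the shares were close, at 4 of 28 (14.3%) against 12.8%. These are matches of letters and show neither binding nor a cause. SREBF1, with a ratio of 1.30, and LBR, with 0.02, had none of the 4 motifs in their windows. MSMO1, with 1.06, had 4 CCAAT boxes and NSDHL, with 0.04, had 5. Whether the motifs go with the ratios was not tested.

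The mevalonate steps were split, with 5 of 7 genes above 0 on the deposited scale, 3 when centred on the hybridisation controls and 2 on the poly-A controls, and a median of 0.07. ACAT2, which joins 2 acetyl-CoA molecules at the entry, had an intensity of 4705 with the control and 4955 with miR-31, a ratio of 0.07; pairs of intensities below are in this order. HMGCS1, which makes HMG-CoA, had 859 and 1458 (0.75), and its other probe set, at 187 and 273, had 0.51. Both of its probe sets were higher in the miR-31 array.

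MVK, the first mevalonate kinase, had 473 and 619 (0.38), with 0.51 on its other probe set past the filter. PMVK, the next kinase, had 2597 and 1750 (-0.57) on its single probe set, so the 2 consecutive kinases lay on opposite sides of 0. MVD, which decarboxylates the product, had 45.9 and 12.2 (-1.13). Both values lie below the filter, where signal and background cannot be separated, and the ratio ran from -1.83 with a pseudocount of 1 to -0.53 with 64.

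IDI1, the isomerase of the isoprenoid unit, had 2093 and 3304 (0.65). Its 4 probe sets spread from -0.19 to 0.93, with 3 above 0, and 3 of the 4 are of the _x_at type, whose probes can also match other transcripts. FDPS, which builds farnesyl diphosphate, had 5248 and 5310 (0.02) and was among the brightest of these genes. The group thus holds HMGCS1 and IDI1 past 1.5-fold higher, ACAT2 and FDPS at nearly equal intensity in both arrays, and PMVK and MVD lower.

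All 10 measured enzymes between squalene and cholesterol had ratios above 0 on the deposited scale, 6 when centred on the hybridisation controls and 3 on the poly-A controls, with a median of 0.43. SQLE, the squalene epoxidase, had 1648 and 2205 (0.42), and its 4 probe sets ran from -0.17 to 0.84 with 3 above 0. LSS, which closes the sterol rings, had 2133 and 3160 (0.56), with 0.73 on its other probe set past the filter. Its remaining probe set, below the filter, went the other way, at 83.1 and 44.2 (-0.72).

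TM7SF2 and LBR both encode sterol C14 reductases. TM7SF2 had 230 and 830, a ratio of 1.78, the highest of the 29 and above 99.2% of genes past the filter. LBR, which is also a nuclear envelope protein, had 5078 and 5164 (0.02). As plain ratios of intensity these are 3.61-fold and 1.02-fold, so 1 of the reductases differed between the arrays and the other hardly did. Each rests on 1 probe set, and intensities of different probe sets do not compare the levels of the genes.

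MSMO1, the C4 methyl sterol oxidase, had 2586 and 5425 (1.06) on its single probe set, above 96.9% of genes. The other enzymes that remove the C4 methyl groups with it lay near 0: NSDHL had 976 and 1001 (0.04, and 0.20 on its other probe set), and HSD17B7 had 2231 and 2287 (0.04) on 1 _x_at probe set. Their sign is not settled, since NSDHL was below 0 after quantile normalization and HSD17B7 when centred on either spike-in class.

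Of the last 3 enzymes, EBP, the sterol isomerase, had 1818 and 2069 (0.19), with 0.45 and 0.53 on its 2 other probe sets past the filter. SC5D, the C5 desaturase, had 2084 and 2831 (0.44). DHCR7, which reduces 7-dehydrocholesterol to cholesterol, had 750 and 1038 (0.46) on its brightest probe set and 493 and 1196 (1.25) on the other. The brighter probe set thus had the smaller ratio in both EBP and DHCR7, so the rule of the brightest probe set gives the lowest of their values past the filter.

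**Figure D2:**
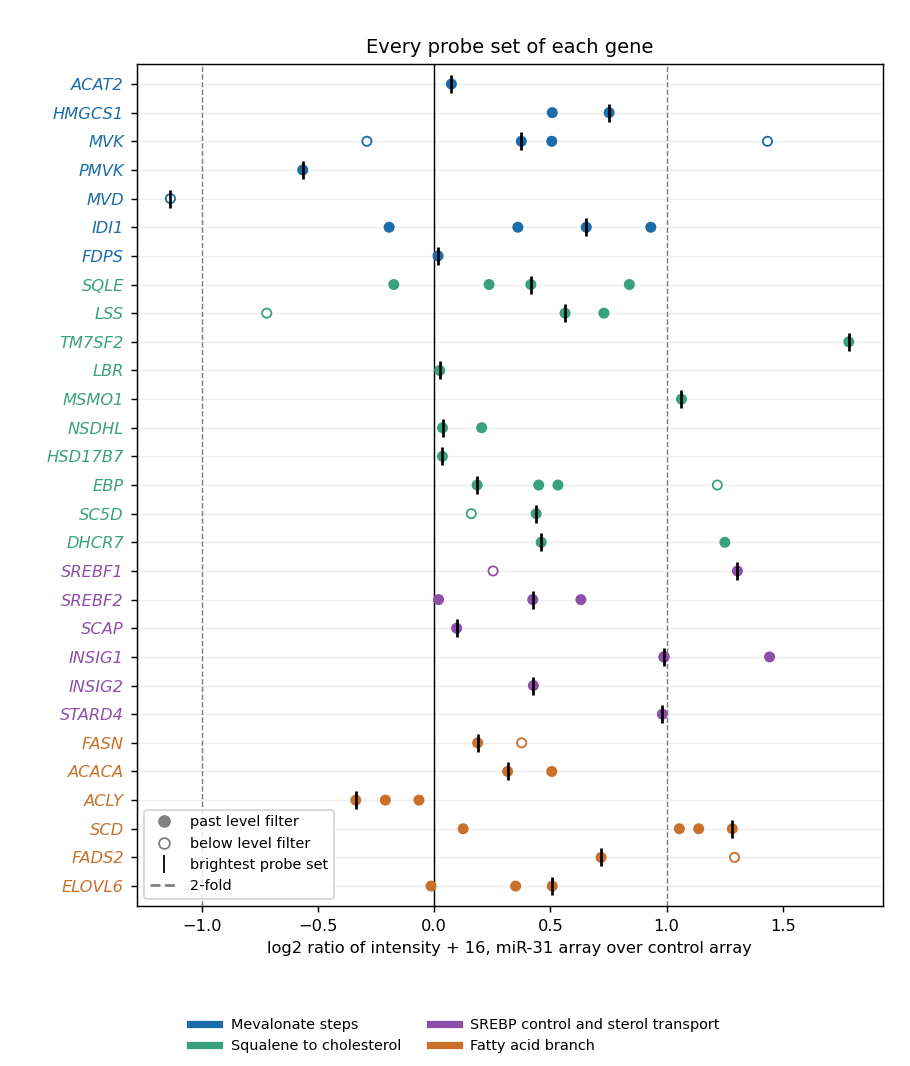
Log2 ratio of every probe set of each gene, miR-31 array over control array. Filled points passed the level filter, open points did not, the black bar marks the brightest probe set and dashed lines mark 2-fold. INSIG1 has all 3 points near or past 2-fold (2 of them overlap), SCD has 3 of 4 past it, the 3 ACLY points lie below 0 on the deposited scale, and IDI1, SQLE and ELOVL6 have filled points on both sides of 0.

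The genes of SREBP control and sterol transport had the highest median of the 4 groups, 0.70, and 6 of 6 were above 0, against 5 when centred on the hybridisation controls and 3 on the poly-A controls. SREBF1, which encodes SREBP-1 and is tied mainly to fatty acid synthesis, had 212 and 547 (1.30), and its other probe set, at 8.37 and 13.1, is too dim to read. SREBF2, which encodes SREBP-2 and is tied mainly to sterol synthesis, had 235 and 321 (0.42), with 3 probe sets between 0.02 and 0.63. Both transcripts were among the dimmer of the 29 but passed the filter in each array.

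INSIG1, which retains SREBP and is itself a target of it, had 1816 and 3619 (0.99), and its other probe sets had 1.44 and 0.99. All 3 probe sets thus lay near or past 2-fold, and the brightest stands just under it. INSIG2, the other retention protein, had 651 and 881 (0.43). SCAP, the escort of SREBP, had 1125 and 1205 (0.10). STARD4, a carrier that moves cholesterol between membranes, had 644 and 1287 (0.98), also just under 2-fold.

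In the fatty acid branch 5 of 6 measured genes were above 0 on the deposited scale, 4 when centred on the hybridisation controls and 2 on the poly-A controls. ACLY, which makes cytosolic acetyl-CoA from citrate, was the exception, with 9307 and 7365 (-0.34), and its 3 probe sets all lay below 0, between -0.34 and -0.07. ACACA, the acetyl-CoA carboxylase, had 1583 and 1975 (0.32), with 0.51 on its other probe set. FASN, the fatty acid synthase, had 656 and 749 (0.19).

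The remaining 3 genes lengthen and desaturate the product. ELOVL6, an elongase, had 2064 and 2943 (0.51), with 0.35 and -0.01 on its other probe sets. SCD, the stearoyl-CoA desaturase, had 2210 and 5401 (1.28), and its other probe sets had 1.06, 1.14 and, on an _x_at probe set, 0.12. FADS2, the delta-6 desaturase, had 271 and 456 (0.72). SCD was above 98.1% of genes past the filter, and SREBF1 above 98.2%.

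Across all of these genes 53 of 62 probe sets passed the level filter, and 46 of the 53 (86.8%) had ratios above 0, against 54.7% of the 22483 probe sets of single genes that passed. Of 14 genes with at least 2 passing probe sets, 10 had all of them above 0 (71.4%, against a background of 32.3% of 5923 genes), ACLY had all below 0, and IDI1, SQLE and ELOVL6 were mixed. Probe sets of a gene share the same RNA and are not replicates.

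These genes are brighter than most, with a median level above 72.2% of genes past the filter, and ratios on these arrays vary with level. Among the 2948 brightest genes the median ratio was -0.05, and it was 0.47 over the 12 sterol and fatty acid genes there. At least 1.5-fold higher were 4 of those 12, against 3.70% of the 2948. Among the next 2948 genes by level the medians were 0.32 over 9 of these genes and 0.00 over all, and among the following 2948 they were 0.43 over 7 and 0.09. The counts at least 1.5-fold higher there were 2 of 9, against 6.75%, and 3 of 7, against 14.5%. The dimmest 2948 held 0 of them.

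**Figure D3:**
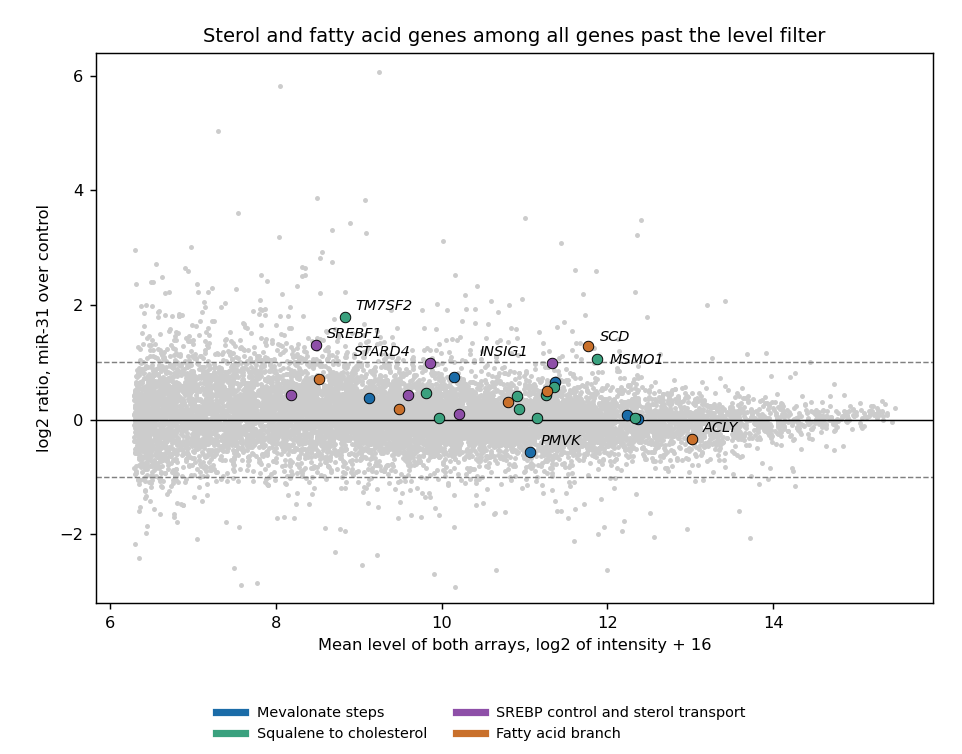
Log2 ratio, miR-31 over control, against mean level (log2 of intensity + 16) for the 11792 genes past the level filter in grey, with the 28 sterol and fatty acid genes that passed coloured by role. The coloured points lie mostly above the line at 0, among genes of middle to high level, and TM7SF2, SREBF1, SCD and MSMO1 lie past the dashed 2-fold line.

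Other genes of lipid metabolism, given as 5 lists, lay closer to the background: over 58 of 77 that passed the filter the median was 0.13, with 36 above 0 (62.1%, against 53.2%) and 1 at least 2-fold higher (1.72%, against 3.74%). The machinery that cleaves SREBP or degrades its regulators had a median of 0.17 over 8 genes. MBTPS1, the site-1 protease, had 714 and 1143 (0.67, and -0.07 on its other probe set). ERLIN1, which takes part in INSIG turnover, had 5587 and 4185 (-0.42). Fatty acid supply and use had 0.23 over 16, with 13 above 0. FADS3, a relative of FADS2, had 410 and 764 (0.87, and 1.11 on its other probe set), and the elongase gene ELOVL7 had 365 and 594 (0.68).

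Triglyceride and phospholipid synthesis had a median of 0.07 over 10 genes, with 5 above and 5 below 0. LPIN1, a phosphatidate phosphatase, had 721 and 1247 (0.78, and 1.09 on another probe set), and LPIN2 had 377 and 566 (0.57). Sterol handling had 0.01 over 15, with 8 above 0. SCARB1, a lipoprotein receptor, had 227 and 489 (1.06, and 0.99 on its other passing probe set) and was the only gene of the 5 lists both past the level filter and past 2-fold. Below the filter, ACSL5, a fatty acyl-CoA ligase, had 3.11 and 47.2, and SOAT2, which esterifies cholesterol, had 51.8 and 14.4, too dim to read. Other users of isoprenoids had -0.07 over 9, with PDSS1, of ubiquinone side chain synthesis, at 887 and 499 (-0.81) and FNTB, a farnesyltransferase subunit, at 123 and 218 (0.75). The highest median of the 5 lists, taken past the level filter, was thus 0.23. That of the mevalonate steps lay among them, at 0.07 over all 7 genes and 0.22 over the 6 past the filter. No test set the lists against each other.

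**Figure D4:**
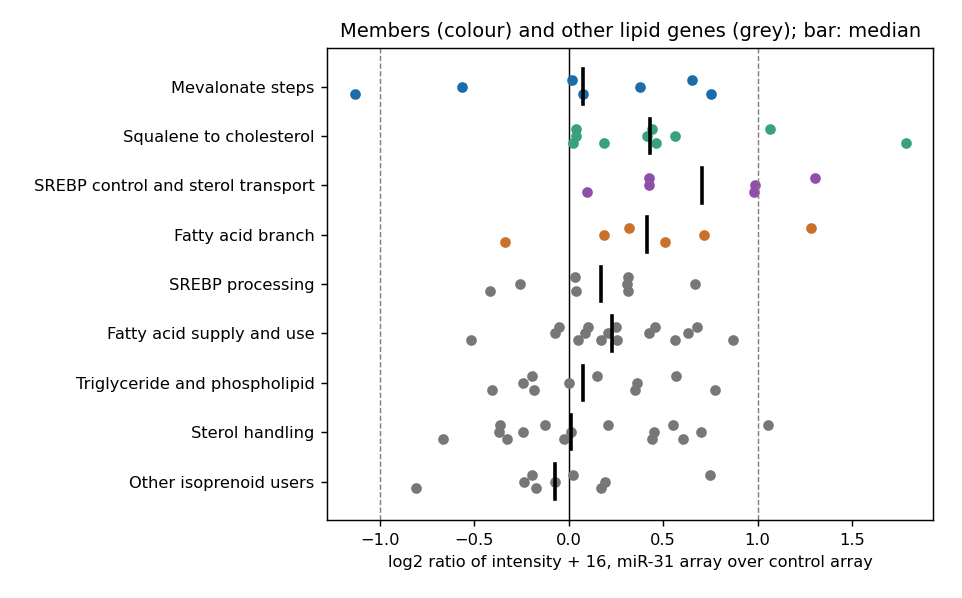
Log2 ratio, miR-31 over control, of each sterol and fatty acid gene by role (coloured, all 29) and of the 58 other lipid genes past the level filter by list (grey). The black bar is the median of each row, from 0.70 for SREBP control and sterol transport to -0.07 for other isoprenoid users, and SCARB1 is the grey point past the dashed 2-fold line.

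The labels name the U251 line and no cell type. Of the markers listed as glial, GFAP (0.85), SOX2 (0.39), VIM (0.19), CD44 (-0.24) and NES (-0.91) passed the filter, with ratios on both sides of 0. S100B and OLIG2 did not pass. Passing a level filter does not settle the cell type. Of 5 immune markers with a value 0 passed, and their summed intensity was 90.7 with the control and 164 with miR-31. Of the others, 2 of 4 endothelial markers (sums of 704 and 471) and 2 of 4 neuronal markers (513 and 814) passed. For RNA integrity, the 3' signal over the 5' signal was 0.95 and 1.01 for GAPDH and 2.39 and 2.17 for ACTB. Interferon-induced genes also differed between these RNA samples, with MX1 at 19.4 and 1977 and ISG15 at 1600 and 18161. The part of these in the lipid gene ratios was not tested.

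**Figure D5:**
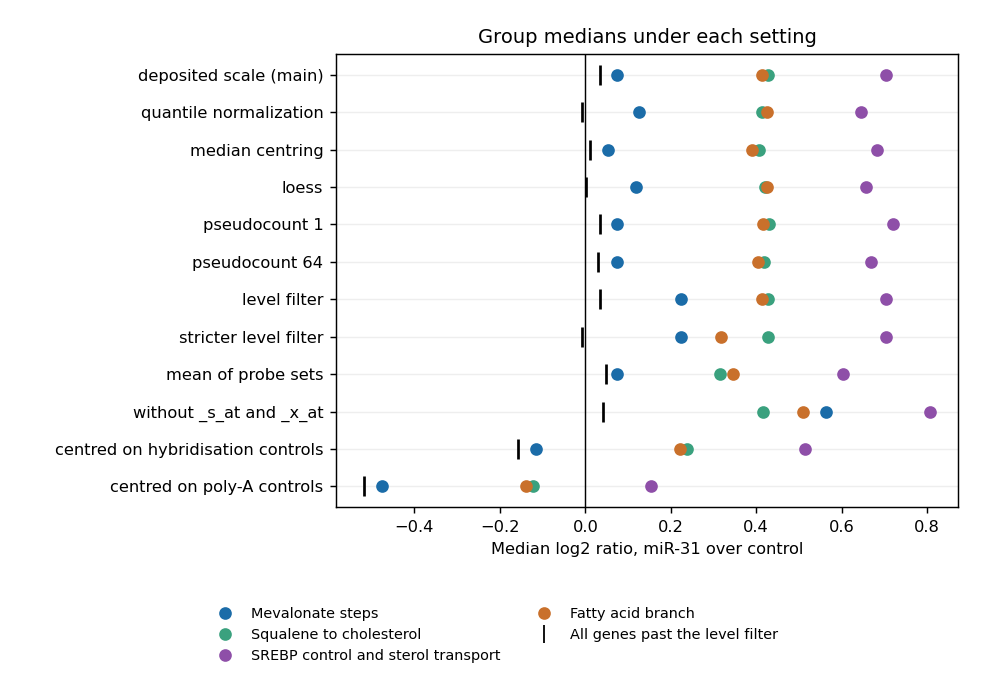
Median log2 ratio of each of the 4 groups (coloured points) and of all genes past the level filter (black bar) under each way of processing the values. All 4 points lie to the right of the bar in every row, the mevalonate steps narrowly on the deposited scale (0.07 against 0.03). The rows of median, hybridisation-control and poly-A centring keep the spacing of the main row by construction, since each subtracts the same value from every gene. With the poly-A centring only SREBP control and sterol transport, at 0.15, stays above 0.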

How the data were processed

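Values were the authors' linear intensity per probe set, for 54675 probe sets on each of 2 arrays (software: not given in the sources used here). A mean after trimming 2% of probe sets at each end was 500.1 on both arrays, so both had been scaled to 1 level. With 1 array a group, their number limits the precision. No detection calls were used. Of the probe sets 41097 had 1 gene symbol, 1801 several and 11777 none in the platform annotation. The probe set with the highest mean level represented each gene. All 29 measured genes were described, 28 of them past the level filter, which left 11792 genes as background. The genes and lists were chosen with earlier results of these data known. All of the 32 genes were to be named, and of each other list the genes past 2-fold or otherwise up to 2 with the largest absolute ratio. Of the marker lists any gene could be named. The alternatives were quantile, median and loess (span 0.3) scaling, pseudocounts of 1 and 64, 2 level filters, the mean of probe sets, leaving out _s_at and _x_at probe sets, and a 1.5-fold threshold. The calculation was tested on simulated data. Tools were matplotlib 3.10.9 for figures, statsmodels 0.14.6 for loess, and Python 3.11.15 with scipy 1.17.1, pandas 2.3.3 and numpy 2.4.6.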

Additional observations from a re-analysis of the deposited data

How the results depend on the processing

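No paired analysis was possible because there is only 1 array per group, so leaving 1 out was not possible either. Centring on spike-in controls was chosen after seeing the data. Of 90 recomputed medians and counts 64 moved by less than 0.1 (medians) or by at most 1.5 times (counts). Centring on the hybridisation controls, a shift of -0.19 for every gene, gave medians of 0.19 for sterol synthesis, -0.12 for the mevalonate steps, 0.24 for squalene to cholesterol, 0.22 for fatty acids and 0.51 for SREBP control, with 11 genes below 0 and MSMO1 at 0.87, under 2-fold. Centring on the poly-A controls gave -0.18, -0.48, -0.12, -0.14 and 0.15 in the same order, with 19 genes below 0, 1 at least 2-fold higher (TM7SF2) and 2 at least 2-fold lower. Both shift all genes alike by construction. The mevalonate median was 0.22 with either level filter, which removes MVD, and 0.56 over the 4 genes left without _s_at and _x_at probe sets. That setting left 20 genes, 0 of them below 0 or 2-fold lower, and gave 0.81 for SREBP control. The genes below 0 on the deposited scale, PMVK, MVD and ACLY, have only _s_at probe sets, so this 0 follows from their removal. TM7SF2 and SCD, which were past 2-fold higher, dropped out as well. The count 2-fold lower was also 0 with either filter and with a pseudocount of 64. The mean of all probe sets, including those below the level filter, gave 0.31 for squalene to cholesterol and 0.60 for SREBP control. It took SREBF1 to 0.78 and SCD to 0.90, under 2-fold, and INSIG1 to 1.14 and FADS2 to 1.01, past it. The SREBF1 value averages in a probe set at 8.37 and 13.1, and the FADS2 value a probe set at 23.0 and 79.6, both below the filter. At 1.5-fold 9 genes were higher. Dim values limit MVD.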
